A study of Mus musculus with 8 samples.

Results

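Genes of the p53 pathway and of apoptosis were described in mouse undifferentiated spermatogonia after tamoxifen treatment meant to delete Tert. Tert encodes the catalytic subunit of telomerase. The set was a list of 40 gene symbols, namely Trp53 itself, its direct regulators and genes known to be switched on by p53 or to carry out programmed cell death. A symbol counted as measured when the authors' table of the comparison held a row with it, which was the case for 36 of the 40 genes, out of 14853 rows in all. Perp, Fas, Gdf15 and Dcxr had no row and were not analysed here. Every row of the table had a mean normalized count above 10, so the 36 are the members that passed such a minimum.

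The compared groups were 4 samples of genotype TERTCreER/flox:Rosalsl-Tdtomato/+, titled TERT-del, and 4 samples of genotype TERTCreER/+:Rosalsl-Tdtomato/+, titled TERT-hetero, all from C57BL/6 mice aged 8 to 12 weeks. Both groups carried a tamoxifen-dependent Cre (CreER) on one Tert allele and a red fluorescent reporter that Cre switches on, and both received tamoxifen. The groups therefore differ in the second Tert allele, which is flanked by loxP sites in one group and intact in the other. On day 7 after tamoxifen, tdTomato-positive cells of the MCAM-high:KIT- fraction were sorted for total RNA sequencing, so that only cells in which the reporter had been switched on were measured. As the genotype is written, the Cre is read from the Tert locus itself, so that cells without Tert activity would not switch on the reporter. The labels do not say whether the samples came from separate animals, and the p-values then measure the spread between these samples, which may be technical.

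The transcription factor p53 is held at low levels by MDM2, which marks it for degradation. Damage signals, among them those from chromosome ends that have lost their telomere cap, stabilise p53, which then induces genes that stop the cell cycle, repair DNA or open the mitochondrial route to cell death. In the testis, p53 takes part in the removal of damaged spermatogonia. The comparison bears on whether such a response was present in the transcriptome of spermatogonia of the floxed genotype shortly after tamoxifen. Whether Tert was deleted in the sorted cells was not tested.

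Values of single libraries were not used here, and all fold changes are those of the comparison the authors deposited, given as log2 of CreER/flox over CreER/+ with the standard error (SE). The direction follows the table's name, flox against WT. Tert itself stood at 0.29 (SE 0.26, adjusted p 0.595, mean count 98.0) in the authors' deposited table. Which exons the Cre removes is unknown from these sources, so the Tert value gives no check of the labels or of the sign. The sorted cells had rows for all 16 markers of undifferentiated spermatogonia, among them Zbtb16, Gfra1 and Mcam at mean normalized counts of 5143, 2586 and 4854, and none of the 16 was called in the authors' deposited table. Genes of spermatids, the haploid cells, were present too, at mean counts of 21.8 to 1924 with a median of 295. All 9 spermatid markers lay below 0 with a median of -1.14 and 4 called lower in the authors' deposited table. The most abundant of them, Tnp1, Tnp2, Prm1 and Prm2, were not called (adjusted p 0.0572 to 0.114). Their mean counts were 1048 to 1924, and their SEs were 4.17 to 5.39 times those of rows of like mean count. In sorted bulk samples, fewer such cells and less RNA per cell cannot be told apart. Sertoli cell markers had rows for 4 of 6 genes at mean counts of 16.2 to 24.3, leukocyte markers for 2 of 4 at 13.03 and 18.7, and none of these was called in the authors' deposited table. Differentiating spermatogonia (5 genes, mean counts 79.9 to 681) and endothelial cells (3 genes, 32.2 to 106) had no called marker either. The same held for erythroid cells (4 genes, 25.8 to 107) and Leydig cells (1 gene, 46.4). The 6 spermatocyte markers had mean counts of 27.9 to 2333. Among them Piwil1 was called lower at -0.73 (SE 0.14), and of 2 myoid markers Actg2 was called lower at -1.17 (SE 0.37), in the authors' deposited table. The part of these other cell types in the results below was not tested.

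None of the 36 p53 target and apoptosis genes was called changed at an adjusted p of 0.05, whereas 5.36% of all rows were called, 1.94% higher and 3.42% lower in CreER/flox. At an unadjusted p under 0.05, 2 members passed in the authors' deposited table, Ccng1 on the higher side, where 9.15% of all rows stood, and Aen on the lower, where 10.5% stood. In both directions together that is 5.56% of the members, against 19.7% of all rows. The submitters' processing notes name DESeq2 for such a test. Fold changes of the members were small, with an absolute log2 value under 0.2 in 30 of 36 genes (83.3%), against 57.0% of all rows in the authors' deposited table. The median over the members was 0.08, with 24 values above 0 and 12 below, and the median over all rows was 0.0007 in the authors' deposited table. The Wald statistic, or log2 fold change over SE, had an SD of 1.00 over the members and 1.54 over all rows in the authors' deposited table. At the median the members were measured slightly more precisely, with a mean count of 233 against 192 for all rows and an SE of 0.15 against 0.17 in the authors' deposited table. Low counts were rarer among them. A mean count under 50 was found for 5 of 36 members against 3529 of 14853 rows, and at least 100 for 29 against 9407. The shares above were not matched for mean count.

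**Figure D1:**
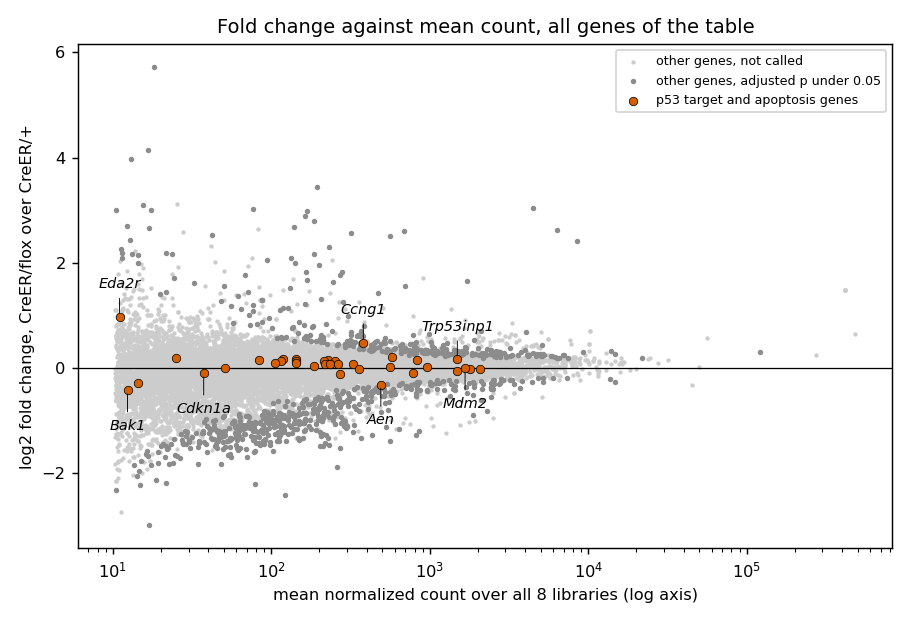
Log2 fold change of CreER/flox over CreER/+ (vertical axis) against the mean normalized count over all 8 libraries (horizontal log axis) for all 14853 rows. Grey points are other genes, darker where the adjusted p is under 0.05, and orange points are the 36 p53 target and apoptosis genes, 30 of which lie within 0.2 of 0.

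The search of promoter sequence did not use the expression values, though 2 of the genes printed below were picked by their p. The list was drawn up of known p53 targets, so a high share of p53 motifs describes its choice and is no result of this comparison. The p53 consensus decamer, the palindromic unit of 10 bases of which a full p53 site holds a pair, read on both strands, was searched in RefSeq promoters of GRCm38.p6 running from 250 bases before to 50 bases after each transcript start. Promoters were found for 29 of the 36 members, not for Ddb2, Pmaip1, Rrm2b, Tnfrsf10b, Trp53inp1, Xpc and Zmat3. The decamer was present in 13 of these 29 genes (44.8%), against 946 of 11639 genes of the table with a promoter (8.13%) and 8.36% of all 32851 promoter windows. Decamers lying within 13 bases of each other occurred in 1 member, Cdkn1a, and in 4 of the 11639 genes. Each sequence below is written 5′ to 3′ along the gene with decamers in capitals. The set comprises Cdkn1a as the main p53 target for arrest, Mdm2 as the feedback inhibitor, the pore-forming Bax and the 2 members with the smallest p.
Cdkn1a, chr17:29090866-29090955, plus strand: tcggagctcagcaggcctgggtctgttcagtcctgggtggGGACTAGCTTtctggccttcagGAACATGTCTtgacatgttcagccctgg
Mdm2, chr10:117710895-117710984, minus strand: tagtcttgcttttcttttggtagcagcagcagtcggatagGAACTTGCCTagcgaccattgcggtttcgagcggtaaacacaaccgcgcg
Bax, chr7:45467050-45467139, minus strand: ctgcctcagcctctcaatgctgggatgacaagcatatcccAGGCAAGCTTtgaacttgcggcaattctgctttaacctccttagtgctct
Ccng1, chr11:40755422-40755511, minus strand: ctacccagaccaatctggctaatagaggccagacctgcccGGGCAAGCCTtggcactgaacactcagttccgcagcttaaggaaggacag
Aen, chr7:78895927-78895956, plus strand: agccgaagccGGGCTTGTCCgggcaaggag
The bases printed for Aen begin at the first base of the annotated gene. Its decamer starts 121 bases before the transcript start used for the window, and an annotated Aen exon overlaps that stretch. A match describes letters in a window and is not a measured binding site. The 13 members with a decamer had a median log2 fold change of 0.13, a range of -0.32 to 0.48 and 8 values above 0 in the authors' deposited table. The 16 members with a promoter and no decamer had a median of 0.07, a range of -0.42 to 0.97 and 10 values above 0 in the authors' deposited table. Both ranges span 0 and overlap over most of their length.

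Among p53 and its direct regulators, no gene was called. Trp53 (chromosome 11, 69580348 to 69591873 in GRCm38.p6) stood at 0.14 (SE 0.17, adjusted p 0.734, mean count 252) in the authors' deposited table. Mdm2, both the chief inhibitor of p53 and one of its most direct targets, stood at -0.0072 (SE 0.09, adjusted p 0.979, mean count 1668) in the authors' deposited table. Its 95% interval ran from 0.878-fold to 1.13-fold. The Mdm2 transcript level thus differed between the genotypes by less than its error. The decamer in the printed Mdm2 promoter has no second exact match within 13 bases. Matches with a mismatch and sequence outside the searched windows were not examined. Mdm4, a relative of MDM2 that blocks transactivation by p53, stood at -0.03 (SE 0.06) in the authors' deposited table. Ppm1d, the phosphatase that ends DNA damage signalling and is itself a p53 target, stood at -0.09 (SE 0.10, adjusted p 0.677, mean count 784) in the authors' deposited table.

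Targets that act on the cell cycle and growth made up 14 measured genes, of which 10 were above 0 and none was called. Cdkn1a (chromosome 17, 29090979 to 29100722), the cyclin-dependent kinase inhibitor through which p53 arrests the cycle, stood at -0.10 (SE 0.35, adjusted p 0.919, mean count 37.4) in the authors' deposited table. The count was low, and the 95% interval ran from 0.581-fold to 1.49-fold. A doubling of Cdkn1a lay outside that interval, while a rise of up to 1.49-fold did not. Ccng1 (chromosome 11, 40748552 to 40755309) encodes cyclin G1, which takes part in the feedback on MDM2. It had the largest value of the group, 0.48 (SE 0.17, adjusted p 0.0656, mean count 380), or 1.40-fold with an interval of 1.11-fold to 1.76-fold, and did not pass the test in the authors' deposited table. The SE of Ccng1 was 1.41 times that of rows of like mean count, the highest such ratio among the 36 genes. Trp53inp1, a stress protein that promotes p53 activity, stood at 0.16 (SE 0.08, adjusted p 0.261, mean count 1490) in the authors' deposited table. Ckap2, a microtubule-associated protein of mitosis, had 0.16 (SE 0.09, adjusted p 0.299, mean count 832) in the authors' deposited table.

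The other genes of this group lay between -0.12 and 0.19. Phlda3, an inhibitor of AKT, stood at 0.19 (SE 0.40), and Zmat3, an RNA-binding zinc finger protein, at 0.18 (SE 0.21) in the authors' deposited table. Rap2b, a small GTPase, had 0.14 (SE 0.18) and the tetraspanin Cd82 0.07 (SE 0.18) in the authors' deposited table. The polo-like kinases Plk2 and Plk3 were alike in the authors' deposited table, at 0.13 (SE 0.17) and 0.09 (SE 0.21). Of the stress sensors, Gadd45a had 0.10 (SE 0.17) and Gadd45b -0.0047 (SE 0.30) in the authors' deposited table. Below 0 stood also the antiproliferative Btg2 at -0.12 (SE 0.15) and the transcription factor Foxo3 at -0.07 (SE 0.09) in the authors' deposited table. Each of these values was smaller than its own SE.

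**Figure D2:**
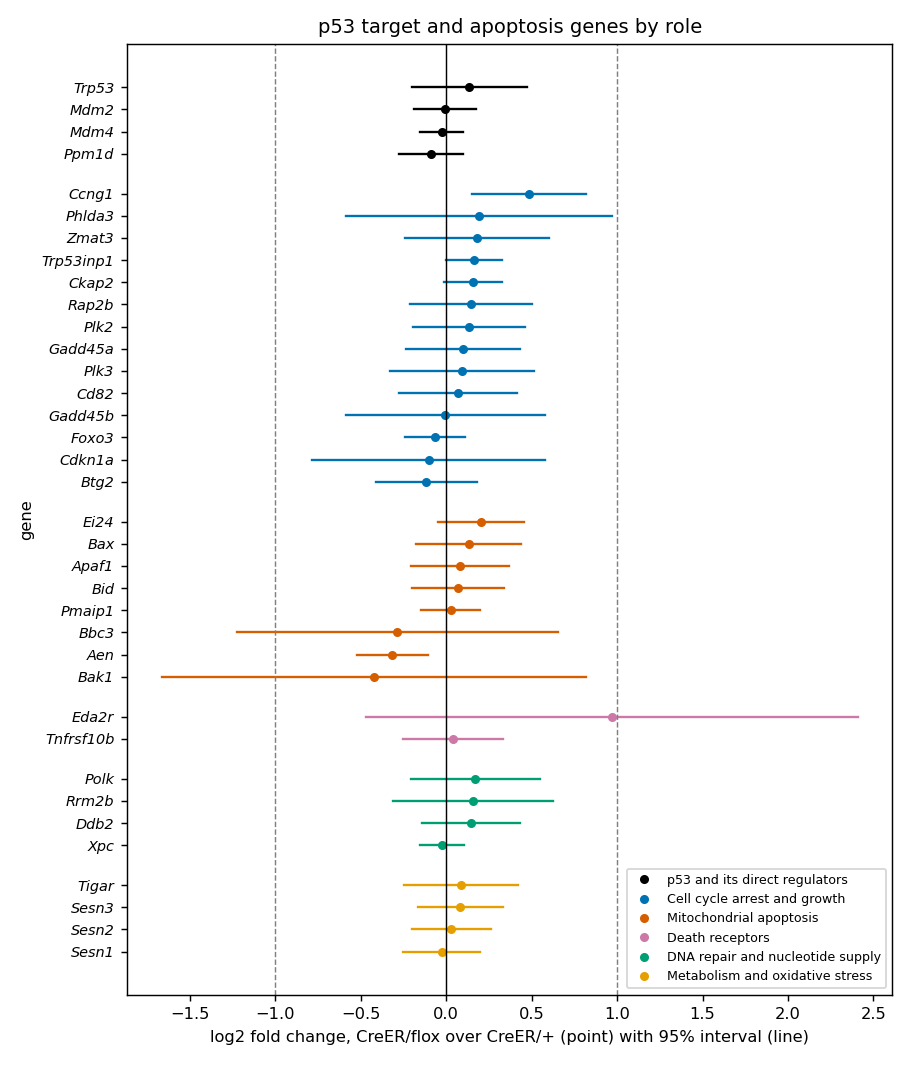
Log2 fold change of CreER/flox over CreER/+ (points, horizontal axis) with 95% intervals (lines) for the 36 genes, grouped and coloured by role. Dashed lines mark a 2-fold change either way; 33 intervals lie inside them, those of Bbc3, Bak1 and Eda2r do not, and those of Ccng1 and Aen leave out 0.

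The mitochondrial route to apoptosis was represented by 8 measured genes, 5 above 0 and 3 below. Aen (chromosome 7, 78895927 to 78911209), a nuclease that p53 induces during apoptosis, had the smallest p of all members. It stood at -0.32 (SE 0.11, adjusted p 0.05003, mean count 490), or 0.803-fold, in the authors' deposited table. The direction of Aen, lower in CreER/flox, was opposite to that of Ccng1. Aen passed when only rows whose mean count reached 100 entered the adjustment (adjusted p 0.0454). Its adjusted p was 0.192 once a trend with GC content, transcript length and abundance had been removed from the fold changes.

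The pore-forming and BH3-only proteins of the mitochondrial route were not called. Bax, which forms pores in the outer mitochondrial membrane, stood at 0.13 (SE 0.16, adjusted p 0.716, mean count 214) in the authors' deposited table. Bak1, its partner in pore formation, had -0.42 (SE 0.63) at a mean count of 12.4 in the authors' deposited table, an interval from 0.315-fold to 1.76-fold. Bbc3, which encodes the BH3-only protein PUMA, stood at -0.29 (SE 0.48, adjusted p 0.812, mean count 14.3) in the authors' deposited table. Pmaip1, which encodes the BH3-only protein NOXA, was measured far more precisely at 0.03 (SE 0.09) and a mean count of 966 in the authors' deposited table. Bid, which links death receptors to mitochondria, had 0.07 (SE 0.14) in the authors' deposited table. Apaf1, the scaffold of the apoptosome that activates caspase 9, had 0.08 (SE 0.15, adjusted p 0.827, mean count 233) in the authors' deposited table. Ei24, a protein of the endoplasmic reticulum, stood at 0.20 (SE 0.13, adjusted p 0.388, mean count 575) in the authors' deposited table.

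Death receptors, DNA repair and metabolic targets also had no called gene. Eda2r, a receptor of the TNF receptor family, had the largest fold change of all members at 0.97, but with an SE of 0.73 and a mean count of 11.0, the lowest among the members (adjusted p 0.499) as listed in the authors' deposited table. Its interval ran from 0.723-fold to 5.31-fold, and it was the only member whose upper bound exceeded a doubling. Tnfrsf10b, the mouse receptor for TRAIL, stood at 0.04 (SE 0.15) in the authors' deposited table. For nucleotide excision repair, Ddb2 had 0.15 (SE 0.15, adjusted p 0.645, mean count 228) and Xpc -0.03 (SE 0.07) in the authors' deposited table. Xpc had the highest mean count of the members, 2070, and its interval ran from 0.898-fold to 1.07-fold. The translesion polymerase gene Polk stood at 0.17 (SE 0.19, adjusted p 0.696, mean count 142) and the ribonucleotide reductase gene Rrm2b at 0.16 (SE 0.24) in the authors' deposited table. The sestrins, which restrain growth signalling through mTORC1, were close together, with Sesn1 at -0.03 (SE 0.11), Sesn2 at 0.03 (SE 0.12) and Sesn3 at 0.08 (SE 0.13) in the authors' deposited table. Tigar, which lowers glycolytic flux, had 0.09 (SE 0.17) in the authors' deposited table.

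How large an estimated change was needed for a call differed between members. The smallest absolute Wald statistic of any called row was 3.00. Multiplied by a member's SE it gives the smallest estimate that the threshold would have called. A true change of that size could still have been missed, since the estimate varies around it. This smallest callable change ranged from 1.14-fold for Mdm4 to 4.61-fold for Eda2r, with a median of 1.38-fold, and lay under 1.5-fold for 27 members. It was 2.06-fold for Cdkn1a, 2.29-fold for Phlda3, 2.71-fold for Bbc3 and 3.73-fold for Bak1. For these and Eda2r, 5 members in all, an estimate of 2-fold would not have been called. The 95% interval lay wholly inside a 2-fold change either way for 33 of 36 members, against 76% of all rows. Low counts, which widen the interval, were rarer among the members than over all rows. For Eda2r a 2-fold rise, and for Bak1 and Bbc3 a 2-fold fall, lay within the interval.

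**Figure D3:**
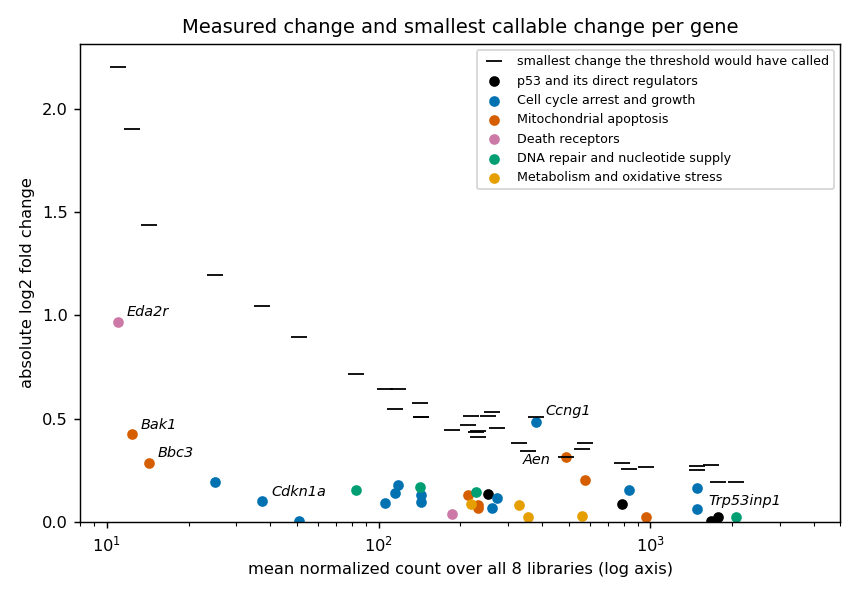
Absolute log2 fold change of each of the 36 genes (points coloured by role) and the smallest absolute change that the threshold would have called for that gene (dash), against mean normalized count (log axis). Aen and Ccng1 lie just under their dashes, and the dash of Eda2r stands highest, at a 4.61-fold change.

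Levels were compared per length, as mean count over all 8 libraries per kilobase of the longest annotated transcript, a scale that misjudges genes whose main transcript is shorter. On that scale Mdm2 was highest at 530.3, followed by Xpc at 476 and Pmaip1 at 354, in counts per kilobase from the authors' deposited table. Trp53 stood at 77.1, Bax at 195 and Cdkn1a at 17.97 counts per kilobase from the authors' deposited table. The lowest were Bbc3 at 7.88, Bak1 at 5.18 and Eda2r at 2.32 counts per kilobase from the authors' deposited table. The spread of these levels over samples was not available from a mean, so neighbours in this order cannot be told apart.

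Of 98 other genes of the pathway, taken from 4 lists beyond the 36, 5 were called, all lower in CreER/flox. That share, 5.1%, is near the 5.36% of all rows that were called (3.42% lower), and so are the counts of 1 or 2 genes in each list. Of 26 other p53 targets, 1 was called, the adenylate kinase gene Ak1, at -1.41 (SE 0.32, adjusted p 0.00134, mean count 97.8) in the authors' deposited table. The median of this list was 0.04, with 14 genes above 0 and 12 below. Of 30 regulators and relatives of p53, 1 was called, Crebbp, an acetyltransferase that acts as a coactivator of p53 and of many other factors, at -0.20 (SE 0.06, adjusted p 0.0421, mean count 5950) in the authors' deposited table. The median of the regulators was 0.03, with 18 above 0.

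Of 14 other BCL2 family genes, 1 was called (background 5.36%), Bcl2l14, at -0.99 (SE 0.25, adjusted p 0.00625, mean count 166) in the authors' deposited table. The median of that family was 0.02, with 7 genes above 0 and 7 below. Of 28 genes for caspases, the apoptosome, inhibitors of apoptosis and death receptor signalling, 2 were called (background 5.36%) in the authors' deposited table. They were Casp9, the initiator caspase of the mitochondrial route, at -0.28 (SE 0.09, adjusted p 0.0324), and Acin1, a nuclear caspase substrate and splicing factor, at -0.29 (SE 0.09, adjusted p 0.0342), both in the authors' deposited table. The median of that list was 0.05, with 17 above 0. With that trend removed, Crebbp moved to -0.07 and lost its call (adjusted p 0.686). Casp9 and Acin1 lost theirs too (adjusted p 0.115 and 0.148), at values of -0.24 each that were little smaller than before. The calls of Ak1 and Bcl2l14 did not end. Ak1 and Bcl2l14 had log2 fold changes near those of the spermatid markers, whose 9 values ran from -1.47 to -0.85, and SEs 1.40 and 1.43 times those of rows of like mean count, against a median of 1.63 for the spermatid markers. The part of spermatid RNA in these values was not tested.

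**Figure D4:**
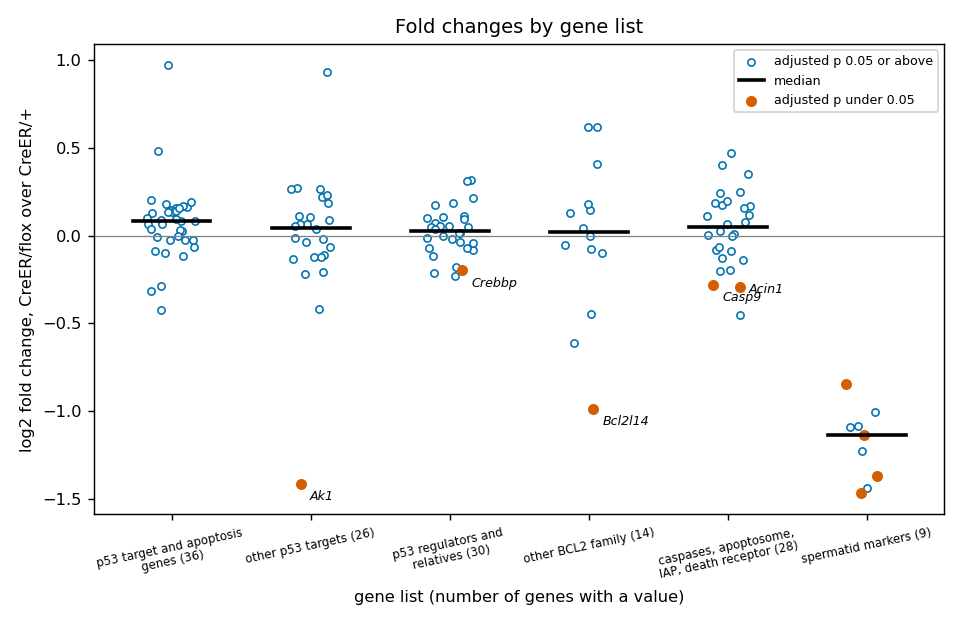
Log2 fold change of CreER/flox over CreER/+ (vertical axis) for each gene of 6 lists, with the number of genes in brackets, filled orange where the adjusted p is under 0.05, and the list median as a black bar. The 36 p53 target and apoptosis genes centre on 0.08 with no filled point, the 4 other pathway lists hold 5 filled points, all below 0, and the 9 spermatid markers centre on -1.14.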

How the data were processed

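Total RNA of sorted spermatogonia was sequenced from 4 CreER/flox and 4 CreER/+ samples with a stranded low-input kit, per the labels' protocols. Builds mm10 and GRCm38 and the tools DESeq2, Bowtie, Bowtie2 2.0.0-6, TopHat2 2.0.4 and Trim Galore appear in the submitters' processing notes. The read counter, strand setting and annotation were not given in the sources used here. Mean counts deposited by the authors are a normalized signal averaged over libraries, and their deposited fold changes and SEs are log2 values. The deposited score is the Wald statistic, and the deposited p-values matched its normal distribution to within 0.424%. Depth per library was not used here; the mean counts summed to 9627624.

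No model was refitted. A gene was called at a deposited adjusted p under 0.05, adjusted by Benjamini-Hochberg over all 14853 rows. Intervals are 95% normal bounds, and SEs were set against the median of the 201 rows nearest in mean count. The trend with transcript length, GC content (GENCODE M21) and mean count was fitted by weighted cubic polynomials to 13693 protein-coding rows. Symbols and coordinates came from RefSeq GRCm38.p6. Calls were also tested on simulated data of 14853 genes with normal noise of the deposited SEs. There, 48.0% of genes changed by a log2 of 0.5 and 69.5% of those changed by 1 were recovered. Unchanged genes called numbered 7 and 8. The central Wald statistics of the deposited comparison had an SD of 1.45, a wider spread than the simulated noise. The simulation therefore checks the calling step and does not show how reliable the deposited calls are.

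The members, roles and lists were chosen with earlier results of these data known, so no test over a list was made. Every measured member was named, with adjusted p for the 10 of smallest p and for Trp53, Cdkn1a, Mdm2, Bax, Bbc3 and Apaf1; from other pathway lists, called genes were named. Alternatives were other thresholds, other sets of rows for adjustment, a t distribution, a wider null, centring and the trend removal. Scripts used Python 3.11.15 with scipy 1.17.1, numpy 2.4.6, matplotlib 3.10.9 and pandas 2.3.3.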

Additional observations from a re-analysis of the deposited data

How the results depend on the processing

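No paired analysis was possible because the table holds no values per library; leaving out single libraries was not possible for the same reason. No member was called at an adjusted p under 0.01, with identical rows counted once, by a t distribution with 6 degrees of freedom (2 members at an unadjusted p under 0.05), with the null SD of 1.45 estimated from the central statistics, or with the trend removed. At an adjusted p under 0.1, 1 member was called higher (Ccng1) and 1 lower (Aen). Aen was also the 1 member called lower with adjustment over rows with a mean count of at least 100 and with fold changes centred on the median of all rows (adjusted p 0.0494). Over all rows, the 288 higher and 508 lower calls became 86 and 178 at 0.01, 554 and 786 at 0.1, 106 and 271 with the trend removed, 2 and 3 with the estimated null SD, and 0 and 0 by the t distribution (1652 rows at an unadjusted p under 0.05). With adjustment over rows with a mean count of at least 100, 332 were lower. The members' median stayed between 0.0794 and 0.0830 in the other settings, and the mean weighted by precision was 0.033. Trend removal changed the sign of 5 members, Foxo3, Bbc3, Pmaip1, Cdkn1a and Gadd45b, and left 27 of 36 above 0. Intervals inside a 2-fold change numbered 32 by the t distribution and 31 with the estimated null SD. The 5 called genes of the other lists were not called by the t distribution or with the estimated null SD.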

Other observations

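Exons of 11 members share bases with exons of another annotated gene in GENCODE M21, 10 of them on the opposite strand, and without a stated strand setting reads of such partners cannot be told apart. Rap2b shares 3702 of its 6793 exon bases with B430305J03Rik. Bak1, with a mean count of 12.4 in the authors' deposited table, shares 614 of 2407 exon bases with Ggnbp1. Ddb2 shares 652 of 2736 bases with Acp2, and Bid shares 628 of 3550 with Bcl2l13. On the same strand, Bax shares 192 of 1576 bases with the gene Gm45808. The remaining overlaps, which include Ei24, Gadd45a and Cdkn1a, lie on the opposite strand.

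Wrap53, a telomerase assembly factor gene that lies next to Trp53 on chromosome 11 (69561754 to 69580250), stood at 0.10 (SE 0.13, adjusted p 0.724, mean count 268) in the authors' deposited table, beside 0.14 (SE 0.17) for Trp53.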
